A study of Mus musculus with 24 samples.

Results

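Pcolce2, Tnxb, Mgp, Sod3, C1qtnf3, Dpp4 and Moxd1 are 7 genes of secreted, matrix, cell surface and endoplasmic reticulum proteins that were put together because their signal differed between dermal fibroblasts of resting back skin and those of other states. They were taken by name: every probe set that the authors' tables of regulated genes give 1 of these names was followed through all arrays. This found 10 probe sets of 7 genes, 4 of them for Dpp4 and 1 for each other gene, out of 45037 tested probe sets and 4560 named genes. The dermal values chose the genes, so all dermal differences between states are given as a description, without a test. What was tested is their behaviour in epidermis, their difference between dermis and epidermis (which reuses the dermal arrays), and the genes of their families.

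RNA was measured on 24 Affymetrix arrays in 8 groups of 3, from mice of a C57BL/6 CBA mixed background. Flow cytometry of back skin gave 2 compartments in each of 4 states, dermis as GFP+ fibroblasts and epidermis as ItgA6+ keratinocytes. These were wild type neonatal skin, D2 skin after transient activation (anagen), D2 skin after sustained activation (ectopic follicles) and wild type skin in telogen, the resting phase of the hair cycle. The series title names the activated factor as beta-catenin and the activated tissue as the epidermis, and the GFP marks the cells sorted as fibroblasts in all dermal groups, the wild type ones included. The labels state neither the ages nor what drives the transgene and the GFP. Genotype and activation differ together between D2 and telogen skin and cannot be told apart, and neither can age and state between neonatal and telogen skin. Each array is 1 numbered mouse, with mice 1, 2 and 3 in neonatal dermis, 2, 3 and 4 in neonatal epidermis and in the transient and telogen groups, and 2, 3 and 5 in the sustained groups. Values below are log2 signal in that order of mice.

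Dermal fibroblasts build the collagen network of the skin and keep it up with secreted proteins. Pcolce2 (procollagen C-endopeptidase enhancer 2) helps the proteinases that trim procollagen before it forms fibrils. Tnxb (tenascin X) is a large matrix glycoprotein that binds and spaces collagen fibrils, and its loss in humans gives loose, overextensible skin. Mgp (matrix Gla protein) is a vitamin K dependent inhibitor of soft tissue calcification that also binds BMP ligands. Sod3 is the extracellular superoxide dismutase, held in the matrix by heparan sulfate. C1qtnf3 (CTRP3, cartducin) is a secreted relative of adiponectin. Dpp4 (CD26) is a surface serine protease that takes dipeptides off chemokines and hormones, and in mouse skin it marks a lineage of scar-forming dermal fibroblasts. Moxd1 is a relative of dopamine beta-hydroxylase that resides in the endoplasmic reticulum, so that the heading of secreted and surface genes covers it only loosely.

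Promoter windows were available for 5 of the 7 genes (RefSeq, GRCm38.p6, 250 bases before to 50 bases after the start site). Shown are C1qtnf3 and Dpp4, whose dermal profiles were the most alike between different genes in the set apart from the pair Pcolce2 and Sod3, and Pcolce2, which followed another order of states. They are at chr15:10952082-10952381 on the plus strand (C1qtnf3), chr2:62412182-62412481 on the minus strand (Dpp4) and chr9:95637378-95637677 on the plus strand (Pcolce2), and capitals mark TATAAA or GGGCGG on either strand.
C1qtnf3: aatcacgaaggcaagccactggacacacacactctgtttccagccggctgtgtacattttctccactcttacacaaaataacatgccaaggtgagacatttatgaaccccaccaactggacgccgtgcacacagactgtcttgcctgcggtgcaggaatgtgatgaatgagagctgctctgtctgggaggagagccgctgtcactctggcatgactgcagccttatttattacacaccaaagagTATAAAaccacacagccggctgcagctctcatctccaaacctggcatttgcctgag
Dpp4: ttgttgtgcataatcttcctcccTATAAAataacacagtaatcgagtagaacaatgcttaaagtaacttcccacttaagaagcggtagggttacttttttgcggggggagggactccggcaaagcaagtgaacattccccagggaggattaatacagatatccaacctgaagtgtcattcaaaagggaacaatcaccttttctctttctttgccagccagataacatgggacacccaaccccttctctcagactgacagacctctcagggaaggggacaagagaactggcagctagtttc
Pcolce2: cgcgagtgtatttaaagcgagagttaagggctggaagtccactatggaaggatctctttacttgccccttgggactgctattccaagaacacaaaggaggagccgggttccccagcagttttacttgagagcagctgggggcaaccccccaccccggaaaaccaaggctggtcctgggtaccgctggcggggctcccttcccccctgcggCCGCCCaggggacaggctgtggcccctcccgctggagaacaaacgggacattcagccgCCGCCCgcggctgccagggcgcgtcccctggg
Both strands were searched for TATAAA, known as the core promoter box, for CTTTGA, the core of sites of the Tcf and Lef proteins, for TGANTCA, the site of Jun and Fos dimers, for GGGCGG, the site of Sp proteins, and for CANNTG, the E-box. TATAAA began at -6 from the start site in C1qtnf3 and at -227 in Dpp4, and 13.6% of 32851 mouse promoter windows of this length hold it. GGGCGG, in 35.7% of all windows, stood on the other strand of Pcolce2 at -40 and 19 from the start site, and in Moxd1 at -21, -8 and 14. Tnxb had TGAGTCA at -55, a motif that 7.81% of windows hold. None of the 5 windows held CTTTGA, present in 16% of all windows. Each held at least 1 CANNTG, as did 72.3% of windows. The Pcolce2 window had 63.7% G and C and 17 CpG dinucleotides and the Moxd1 window 61.7% and 13, against a median of 52.7% and 7. The windows of C1qtnf3, Dpp4 and Tnxb had 50.7%, 45.3% and 53.0%, with 7, 4 and 5 CpG. For C1qtnf3, Dpp4 and Tnxb the annotated gene reaches further upstream than the start site used. These are descriptions of the letters in the windows.

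The labelled cell types were checked against marker genes, each by the brightest of its probe sets in the authors' tables. The summed signal of 5 named fibroblast markers (Col1a2, Col3a1, Col1a1, Dcn, Lum; log2 of the sum of linear signals) was 14.15 to 14.29 in neonatal, 14.20 to 14.40 in transient, 13.70 to 13.88 in sustained and 14.18 to 14.39 in telogen dermis, so all dermal groups carried fibroblast RNA, with sustained dermis lowest. The keratinocyte markers Trp63, Krt5 and Itga6 summed to 9.94 to 10.78 in sustained dermis and to 7.44 to 8.63 in telogen dermis, and 3 of 3 were higher in sustained dermis. The macrophage markers Csf1r, Adgre1, C1qb and Mrc1 summed to 4.29 to 5.67, 6.95 to 8.86 and 5.67 to 6.11 in neonatal, transient and sustained dermis, and to 9.35 to 9.495 in telogen dermis. The endothelial markers Tek and Kdr summed to 5.12 to 5.79, 6.92 to 8.09 and 3.43 to 5.99, and to 8.54 to 9.06 in telogen dermis. Both sums were highest in telogen dermis, like several of the genes described here. In telogen dermis the macrophage sum was nearly all Csf1r (mean 9.36), which was at 4.93 in sustained dermis. Adgre1 was higher in sustained (3.18) than in telogen dermis (2.57), and the means of C1qb and Mrc1 were 3.80 or less in every dermal group. The adipocyte markers Fabp4, Lpl and Cd36 summed to 11.05 to 11.56, 9.98 to 10.98 and 8.58 to 9.71 in neonatal, transient and sustained dermis, and to 11.26 to 11.35 in telogen dermis, and the muscle marker Des was at 0.90 to 3.79 in sustained and 5.89 to 8.24 in telogen dermis. The part of these cell types in the values below was not tested. Within a group, arrays correlated with r of 0.819 to 0.932 and no 2 arrays were identical.

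In dermis, 6 of the 7 genes had lower values in all sustained arrays than in all telogen arrays, which 9.56% of all probe sets did, and 6 had lower values in all neonatal arrays (13.6% of all probe sets), but they were not the same 6. Pcolce2, Tnxb, Sod3, Dpp4 and Moxd1 were below telogen in both states, C1qtnf3 in sustained dermis and Mgp in neonatal dermis. The name of resting dermis fits Pcolce2, Tnxb, Sod3, Dpp4 and Moxd1 in the sense that telogen had their highest dermal mean, for Pcolce2, Tnxb and 3 of the 4 Dpp4 probe sets with overlap with transient dermis. It does not describe Mgp, which was highest in transient dermis, nor C1qtnf3, whose neonatal, transient and telogen arrays overlapped. In such sorted samples, fewer cells of a type and less RNA per cell cannot be told apart.

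**Figure D1:**
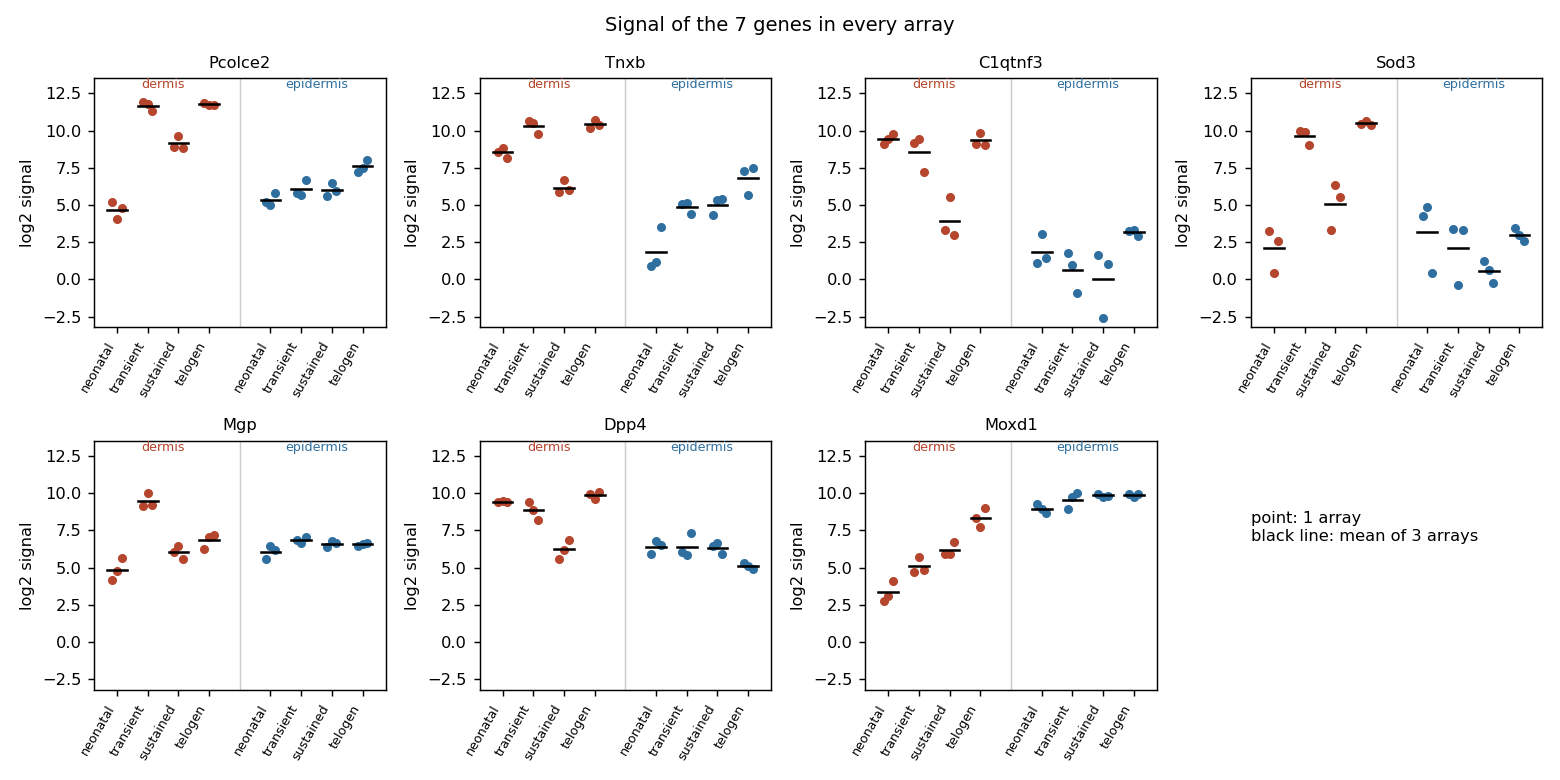
Log2 signal (vertical axis) of the probe set with the highest mean for each of the 7 genes, in dermis (red) and epidermis (blue) of neonatal, transient, sustained and telogen skin; points are single arrays and lines are means of 3. Mgp is highest in transient dermis, C1qtnf3 and Dpp4 are low in sustained dermis alone among the dermal groups, and Moxd1 is higher in epidermis than in dermis in every state.

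Pcolce2 had its lowest dermal values in neonatal skin. Its log2 signal was 5.18, 4.07 and 4.83 in neonatal, 11.92, 11.76 and 11.31 in transient and 8.91, 9.64 and 8.86 in sustained dermis, against 11.88, 11.74 and 11.71 in telogen dermis. The transient arrays overlapped the telogen arrays, the sustained arrays lay below both, and the neonatal arrays lay below all others. The differences from telogen were -7.08, -0.11 and -2.64 for neonatal, transient and sustained dermis (standard errors 0.34). The authors' deposited table gives Pcolce2 as 105-fold lower in neonatal than in telogen dermis.

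Tnxb had its lowest dermal values after sustained activation. It had 8.59, 8.84 and 8.16 in neonatal, 10.65, 10.48 and 9.75 in transient and 5.85, 6.65 and 5.98 in sustained dermis, against 10.19, 10.68 and 10.40 in telogen dermis. Transient and telogen arrays overlapped, and neonatal and then sustained arrays followed without overlap. The differences from telogen were -1.89, -0.13 and -4.26 (standard errors 0.33). The order of neonatal and sustained dermis was thus the reverse of that of Pcolce2.

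Mgp departed from the rest in transient dermis. It had 4.17, 4.81 and 5.63 in neonatal, 9.17, 10.003 and 9.19 in transient and 6.05, 6.46 and 5.57 in sustained dermis, against 6.24, 7.09 and 7.16 in telogen dermis. All transient arrays lay above all others, the sustained arrays overlapped both the telogen and the neonatal arrays, and the neonatal arrays lay below telogen. The differences from telogen were -1.96, 2.62 and -0.80 (standard errors 0.44), and sustained dermis lay below transient dermis, with a difference of -3.43. Mgp was the only 1 of the 7 genes with all transient arrays above all telogen arrays.

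Sod3 spanned the widest range of log2 values in dermis among the 7 genes. It had 3.27, 0.41 and 2.58 in neonatal, 9.95, 9.93 and 9.001 in transient and 3.34, 6.38 and 5.54 in sustained dermis, against 10.47, 10.62 and 10.40 in telogen dermis. The 3 neonatal arrays and 1 of the sustained arrays were below their array's median, so the neonatal difference of -8.41 (standard error 0.84) rests on values near the floor of the arrays. The 4 states followed each other without overlap, neonatal and sustained by a narrow margin, with differences of -0.87 for transient and -5.41 for sustained dermis. The spread in sustained dermis was wide, 5.09 ± 1.57 (SD, n = 3), against 10.49 ± 0.11 in telogen dermis (SD, n = 3).

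C1qtnf3 was bright in neonatal, transient and telogen dermis and low in sustained dermis. It had 9.12, 9.46 and 9.76 in neonatal, 9.14, 9.40 and 7.20 in transient and 3.29, 5.54 and 2.99 in sustained dermis, against 9.13, 9.83 and 9.06 in telogen dermis. The neonatal and telogen arrays overlapped, as did transient and telogen, where transient mouse 4 lay below the rest. The sustained arrays lay below all others, with a difference of -5.40 from telogen and -4.64 from transient dermis (standard errors 0.72). The authors' deposited table gives C1qtnf3 as 59.4-fold lower in sustained than in telogen dermis.

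Dpp4 followed C1qtnf3. Its brightest probe set, 1416697_at, had 9.39, 9.47 and 9.39 in neonatal, 9.43, 8.88 and 8.23 in transient and 5.62, 6.21 and 6.85 in sustained dermis, against 9.96, 9.65 and 10.09 in telogen dermis. Neonatal and transient arrays overlapped and lay a little below telogen, with differences of -0.48 and -1.05, and the sustained arrays lay further below (difference -3.67, standard error 0.37). The 3 dimmer probe sets gave sustained differences of -2.97 (1459973_x_at, whose suffix marks probes that can match other transcripts), -3.14 (1441342_at) and -2.13 (1438279_at). All 4 probe sets had their lowest dermal mean in sustained skin and their highest in telogen. They differed on neonatal dermis, where 1441342_at was lower than in telogen (difference -1.65) and 1438279_at overlapped it (-0.31). Against transient dermis, 3 of the 4 had all sustained arrays lower and 1441342_at overlapped.

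**Figure D2:**
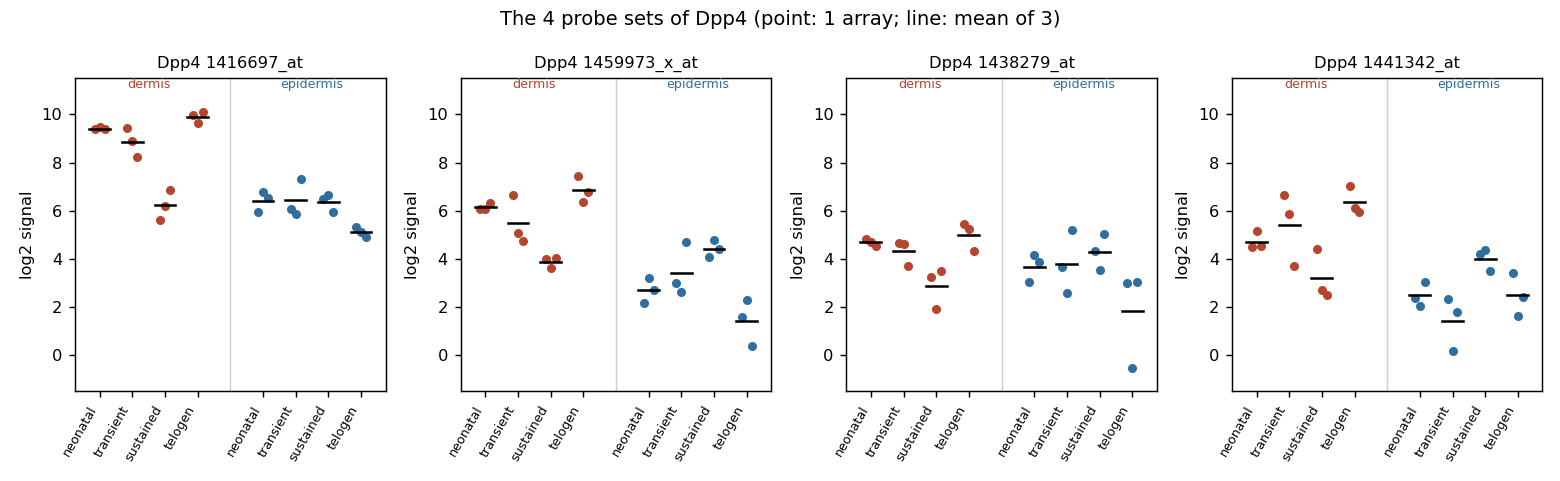
Log2 signal (vertical axis) of the 4 Dpp4 probe sets in dermis (red) and epidermis (blue) of neonatal, transient, sustained and telogen skin; points are single arrays and lines are means of 3. All 4 have their lowest dermal mean in sustained skin, and all have sustained epidermal arrays above the telogen ones.

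Moxd1 had an order of states of its own. It had 2.78, 3.12 and 4.11 in neonatal, 4.74, 5.73 and 4.86 in transient and 5.94, 5.95 and 6.73 in sustained dermis, against 8.31, 7.73 and 8.98 in telogen dermis. The 4 states did not overlap, and the sustained arrays lay above the transient arrays (difference 1.10), which held for no other gene of the set. The differences from telogen were -5.00, -3.23 and -2.13 (standard errors 0.46). In each state Moxd1 was brighter in epidermis than in dermis, and the keratinocyte marker sum was 9.94 to 10.78 in sustained and 8.60 to 9.71 in transient dermis. It was 8.535 to 9.15 in neonatal dermis, where Moxd1 was lowest, and 7.44 to 8.63 in telogen dermis, where Moxd1 was highest. The part of keratinocyte RNA in the order of the 4 states was not tested.

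Counted over the 10 probe sets, 8 had all neonatal arrays below all telogen arrays, which 13.6% of all probe sets did. In transient dermis 3 probe sets lay below telogen (background 6.88%) and 1, Mgp, above it (background 11.7%). In sustained dermis 9 lay below telogen (background 9.56%). Between sustained and transient dermis 8 lay below (background 8.44%) and 1, Moxd1, above (background 16.7%). The choice of genes used these contrasts, so nothing is read from the counts, and the contrasts with telogen share its 3 arrays. The median differences of the 10 probe sets were -1.77, -0.81 and -3.06 for neonatal, transient and sustained against telogen, where the medians of all probe sets were 0.18, 0.13 and 0.42.

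2 orders of the dermal states recurred among the 7 genes. Pcolce2 and Sod3 ran from telogen over transient and sustained to neonatal, with r = 0.949 between them over the 12 dermal arrays. C1qtnf3 and Dpp4 had sustained dermis far below the other 3 states, with r = 0.922. The medians of the adipocyte, fibroblast and endothelial marker sums and of Des were likewise lowest in sustained dermis. Among the adipocyte markers, Cd36 was instead lowest in transient dermis (mean 3.08, against 4.16 in sustained dermis). The endothelial marker Tek (mean 3.59, against 4.09 in sustained dermis) and the fibroblast marker Dcn (5.215, against 6.25) were lowest in neonatal dermis. The endothelial sums of neonatal and sustained dermis overlapped. The part of these cell types in the 2 genes' values was not tested. Tnxb followed the second pair more closely (0.843 with C1qtnf3, 0.849 with Dpp4) than Pcolce2 (0.462). Pcolce2 had r = -0.025 with C1qtnf3 and 0.031 with Dpp4. Moxd1 was nearest to Pcolce2 (0.733) and Mgp to Pcolce2 (0.765). The 4 Dpp4 probe sets had r of 0.743 to 0.933 with each other. These values describe 12 arrays in 4 groups, so they mostly follow 4 group means.

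In epidermis, which did not choose most of these genes, 2 of the 10 probe sets passed the test in neonatal skin and none in the other states. Pcolce2 and Tnxb were lower in neonatal than in telogen keratinocytes. Both are also in the authors' epidermal table for all 3 contrasts, and Moxd1 for the neonatal one, so these results are not independent of the study's own selection. A call here is an adjusted p (limma, Benjamini-Hochberg over 45037 probe sets) under 0.05.

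Tnxb had 0.89, 1.20 and 3.50 in neonatal, 5.08, 5.16 and 4.41 in transient and 4.33, 5.33 and 5.39 in sustained epidermis, against 7.31, 5.70 and 7.51 in telogen epidermis. Pcolce2 had 5.21, 4.99 and 5.77 in neonatal, 5.79, 5.64 and 6.71 in transient and 5.58, 6.5005 and 5.92 in sustained epidermis, against 7.24, 7.50 and 8.02 in telogen epidermis. For both genes the telogen arrays lay above all arrays of the other 3 states. The neonatal difference was -4.98 ± 0.71 for Tnxb (SE, limma adjusted p = 0.00419) and -2.26 ± 0.38 for Pcolce2 (SE, limma adjusted p = 0.00883). These are folds of 31.5 and 4.80, where the authors' deposited table gives 4.91-fold and 5.48-fold lower, so the size for Tnxb is uncertain. All neonatal Tnxb values were below the array median, and 4.15% of all probe sets were called lower in this contrast. The fibroblast marker sum was 12.43 to 12.75 in neonatal and 10.68 to 11.25 in telogen epidermis, with 3 of the 5 markers, the collagens, called higher, while Dcn (0.56) and Lum (-0.50) were not called. The other Col3a1 probe set did not share the call. The part of fibroblast RNA in the Tnxb and Pcolce2 values was not tested.

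In transient epidermis 0 of 10 probe sets were called, where 0.844% of all probe sets were called in either direction, and 5 of 10 had an unadjusted limma p under 0.05, as did 18.0% of all. In sustained epidermis 0 of 10 were called, against 1.15% of all, and 7 of 10 had an unadjusted limma p under 0.05, as did 12.9% of all. Pcolce2 differed by -1.54 ± 0.38 in transient (SE, limma adjusted p = 0.103) and -1.59 ± 0.38 in sustained epidermis (SE, limma adjusted p = 0.0978). Tnxb differed by -1.96 and -1.82 (SE 0.71, limma adjusted p = 0.204 and 0.311). Here the fibroblast marker sum was also lower. It was 8.32 to 8.46 in transient and 8.49 to 8.98 in sustained epidermis, against 10.68 to 11.25 in telogen epidermis. Col1a2 and Col3a1 were called lower in both. The other Col3a1 probe set did not share the call in either state, nor did the other Col1a2 probe set in sustained epidermis. Col1a1 (-1.70 and -1.76) and Lum (-2.38 and -1.79) were lower without a call. Dcn went the other way, with 1.25 and 0.79, also without a call. The part of fibroblast RNA in the Pcolce2 and Tnxb values was not tested.

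The brightest Dpp4 probe set, 1416697_at, had the opposite sign to Pcolce2 and Tnxb in epidermis. It had 5.95, 6.78 and 6.52 in neonatal, 6.07, 5.86 and 7.33 in transient and 6.48, 6.64 and 5.92 in sustained epidermis, against 5.34, 5.12 and 4.91 in telogen epidermis. All arrays of the 3 states lay above all telogen arrays, by 1.29, 1.30 and 1.23 (SE 0.41), and none passed the test (limma adjusted p = 0.0911, 0.159 and 0.226). The neonatal difference was called higher with median centring, with dim probe sets left out, with all 24 arrays and with trend and robust eBayes (limma adjusted p = 0.0298 to 0.0457). The 3 dimmer probe sets did not all share the sign, since 1441342_at differed by 0.0096 in neonatal and -1.05 in transient epidermis and overlapped telogen in both. Of the other Dpp4 probe sets, 1459973_x_at had the largest sustained difference, 3.00 ± 0.61 (SE, limma adjusted p = 0.0533), from values below the median of every array. It was called higher with median centring, dim probe sets left out, an offset or all 24 arrays (limma adjusted p = 0.00700 to 0.0488). The same held with epidermal transient mouse 4 left out of the shared spread (limma adjusted p = 0.0235).

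Mgp varied little between epidermal states, and Moxd1 lay apart from telogen only in neonatal epidermis. Moxd1 had 9.25, 8.92 and 8.65 in neonatal, 8.93, 9.73 and 10.03 in transient and 9.94, 9.78 and 9.84 in sustained epidermis, against 9.93, 9.78 and 9.97 in telogen epidermis. All neonatal Moxd1 arrays lay below the telogen arrays, with a difference of -0.95 ± 0.30 that did not pass (SE, limma adjusted p = 0.0895). It was called lower with dim probe sets left out, an offset, or trend and robust eBayes (limma adjusted p = 0.0103 to 0.0325). Mgp stayed between 5.57 and 7.05 in all 12 epidermal arrays, and its differences from telogen were -0.49, 0.28 and 0.04 (SE 0.27; limma adjusted p = 0.323, 0.599 and 0.964). C1qtnf3 and Sod3 were dim in epidermis, with all 12 C1qtnf3 arrays and 11 of 12 Sod3 arrays below the array median, so their epidermal differences have little meaning at this signal.

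**Figure D3:**
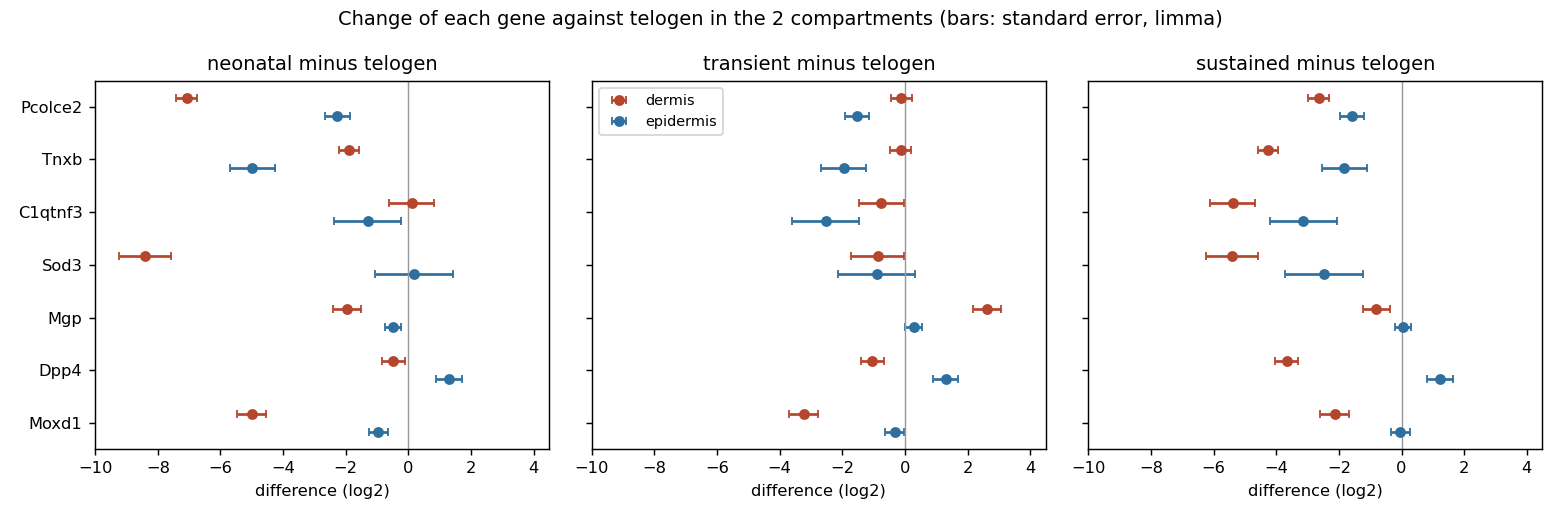
Difference in log2 signal from telogen (horizontal axis) of each gene's brightest probe set for neonatal, transient and sustained skin, in dermis (red) and epidermis (blue); bars are limma standard errors from 3 arrays a group. Dpp4 lies left of 0 in dermis and right of 0 in epidermis in all 3 states, and Tnxb lies left of 0 in both compartments.

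Dermis was compared with epidermis within each state. Of the 10 probe sets, 8 were higher in dermis in telogen skin and 8 in transient skin, 5 in neonatal skin and 3 in sustained skin. Moxd1 alone was lower in dermis in all 4 states, and Mgp was lower in neonatal dermis. Of all probe sets, 7.44% were higher and 8.33% lower in neonatal dermis, 9.09% and 16.5% in transient, 6.33% and 6.22% in sustained and 9.27% and 16.4% in telogen dermis. These tests use the dermal arrays that also served to choose the genes. High dermal values in telogen skin or, for Mgp, in transient skin, and low ones in neonatal or sustained skin, are thus in part given. So are the states in which a gene had or lacked a difference from epidermis, and the p-values below carry this limit.

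C1qtnf3 was higher in dermis in every state, by 7.58, 7.95, 3.92 and 6.18 log2 units in neonatal, transient, sustained and telogen skin (SE 0.95, limma adjusted p = 1.54e-05, 6.07e-06, 0.00878 and 8.23e-05). All 12 epidermal values were below the array median, so the sizes of these differences rest on dim signal. In sustained skin this call was lost with an offset before the logarithm, with only the 6 arrays compared, without sustained dermal mouse 3 and without sustained epidermal mouse 3. Tnxb was higher in neonatal, transient and telogen dermis, by 6.67, 5.40 and 3.58 (SE 0.57, limma adjusted p = 2.04e-07, 1.40e-06 and 0.000115). In sustained skin its difference of 1.14 did not pass (limma adjusted p = 0.243), although all dermal arrays lay above all epidermal arrays. Dpp4 1416697_at was higher by 3.00, 2.43 and 4.78 in neonatal, transient and telogen dermis (SE 0.39, limma adjusted p = 2.15e-05, 0.000145 and 5.65e-08). In sustained skin its dermal and epidermal arrays overlapped, at 6.22 ± 0.61 in dermis and 6.35 ± 0.38 in epidermis (SD, n = 3 each), with a difference of -0.12 ± 0.39 (SE, limma adjusted p = 0.910). None of the 4 Dpp4 probe sets was called in sustained skin, while all 4 were higher in telogen dermis.

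Pcolce2 and Sod3 were the genes without a called difference in neonatal skin. Pcolce2 differed by -0.63 there (SE 0.36, limma adjusted p = 0.288) and was higher in dermis by 5.62, 3.13 and 4.19 in transient, sustained and telogen skin (limma adjusted p = 4.27e-09, 6.16e-06 and 1.06e-07). Sod3 differed by -1.12 in neonatal skin (SE 1.11, limma adjusted p = 0.591) and was higher in dermis by 7.51, 4.54 and 7.48 in the other states (limma adjusted p = 6.06e-05, 0.00912 and 5.39e-05), where all epidermal values were below the array median and the sizes rest on dim signal. Without sustained dermal mouse 3, which had the highest Sod3 value of its group, the sustained difference was 3.89 and no longer called.

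Mgp changed sides between states. Its arrays overlapped in neonatal skin but it was called lower in dermis, with a difference of -1.21 ± 0.36 (SE, limma adjusted p = 0.0273), and higher in transient dermis, with one of 2.60 ± 0.36 (SE, limma adjusted p = 3.22e-05), with no call in sustained (-0.59) and telogen skin (0.26). The neonatal call did not hold with arrays centred on their median, with only the 6 arrays compared, without neonatal dermal mouse 1 or 2 or neonatal epidermal mouse 3 or 4, and with the mouse as a block, where the difference was -0.80. Moxd1 was lower in dermis, with differences of -5.60, -4.45, -3.64 and -1.55 in neonatal, transient, sustained and telogen skin (SE 0.39, limma adjusted p = 2.21e-08, 1.50e-07, 2.64e-06 and 0.00593). Dermal and epidermal Moxd1 arrays did not overlap in any state, and in telogen the call was lost with arrays centred on their median (difference -1.06). With the mouse as a block, Dpp4 1441342_at in neonatal skin (2.63) and Dpp4 1459973_x_at in transient skin (2.08) were not called either, and no other call for the 10 probe sets was lost to the block.

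**Figure D4:**
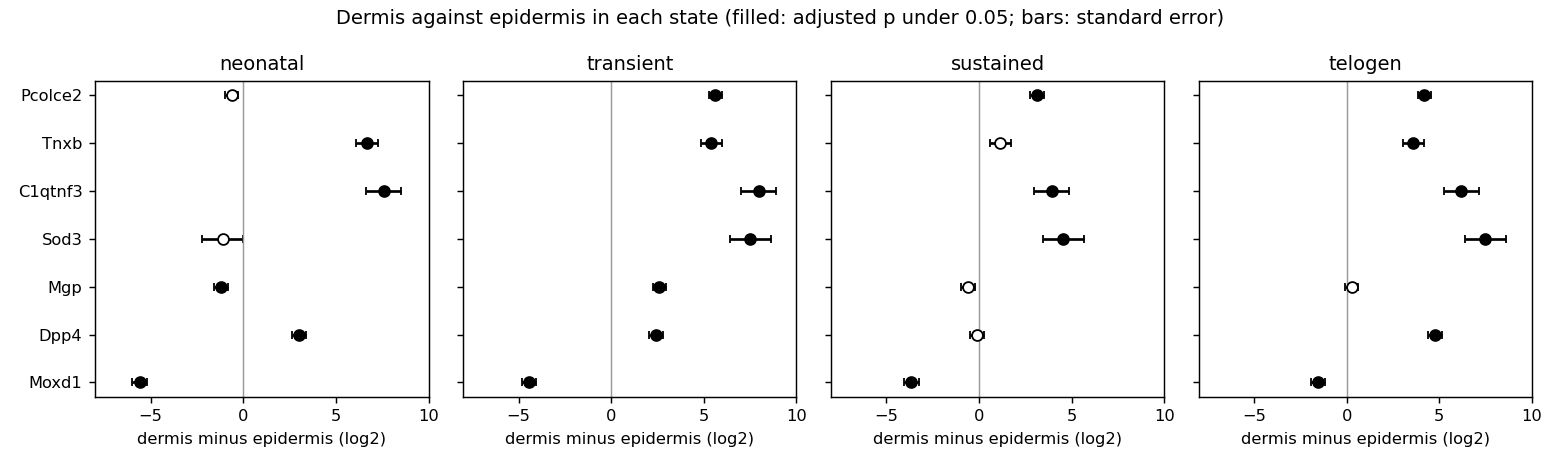
Dermis minus epidermis in log2 signal (horizontal axis) for each gene's brightest probe set in neonatal, transient, sustained and telogen skin; bars are limma standard errors, and filled points have an adjusted p under 0.05. Moxd1 lies left of 0 in all 4 states. In sustained skin Dpp4 lies near 0 and Tnxb right of 0, and both are open.

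The relatives of the 7 genes were followed in dermis by family. Their names come from the authors' tables of regulated genes, picked on these same arrays, so the counts stand beside those of all 4560 named genes. Of these, 23.4% were higher and 28.2% lower in neonatal than in telogen dermis, 1.43% and 0.439% in transient dermis and 18.0% and 19.2% in sustained dermis. Of 57 listed genes with a name, 6 were higher and 26 lower in neonatal, 2 higher and 0 lower in transient and 5 higher and 27 lower in sustained dermis. Their median differences were -0.86, -0.23 and -0.90. Each gene was counted by the brightest of its probe sets in the authors' tables, since other probe sets carry no name here. By this count, 6 genes in neonatal, 1 in transient and 6 in sustained dermis had another named probe set with another call. Over all probe sets, 13.3% were called in either direction in neonatal, 0.488% in transient and 11.0% in sustained against telogen dermis, and 2.22% in sustained against transient dermis.

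Of 13 named procollagen enzymes and fibril collagens, 5 were lower and 1 higher in neonatal dermis, and 6 lower and 0 higher in sustained dermis. The members called were enzymes or their enhancer, and none of the 5 collagens passed on its brightest probe set, although another Col5a1 probe set was lower in sustained dermis (-0.93, limma adjusted p = 0.0186). The procollagen C-proteinase Bmp1 differed by -1.30 in neonatal and -1.23 in sustained dermis (limma adjusted p = 0.00615 and 0.0111), its relative Tll1 by -3.27 and -2.74 and the N-proteinase Adamts2 by -1.03 and -1.19. Pcolce, the paralogue of Pcolce2, was lower as well, with -0.86 ± 0.20 in neonatal and -0.79 ± 0.20 in sustained dermis (SE, limma adjusted p = 0.0210 and 0.0362), where Pcolce2 had differences of -7.08 and -2.64. The collagen crosslinking enzyme Lox was higher in neonatal (0.90) and lower in sustained dermis (-0.90), where its other probe set gave 0.65 and -0.82 and was not called. Col1a1 differed by 0.00 in neonatal and -0.34 in sustained dermis and Col3a1 by -0.10 and -0.48, none of them called.

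Among 7 named tenascins and fibril partners, 1 was higher and 1 lower in neonatal dermis, and 2 higher and 3 lower in sustained dermis. Tnc, the tenascin of growing and healing tissue, was higher by 2.96 ± 0.23 in neonatal and 1.14 ± 0.23 in sustained dermis (SE, limma adjusted p = 6.10e-05 and 0.0128), although its other probe set, at 4.89 and 4.15, gave neither call. Fmod (fibromodulin) was higher in transient dermis by 4.25 ± 0.55 (SE, limma adjusted p = 0.0160) and in sustained dermis by 3.36 (limma adjusted p = 0.00562). The transient call was lost without telogen mouse 2 (limma adjusted p = 0.0504) or transient mouse 3 or 4 (0.0597 and 0.0676) and with only the 6 arrays (0.157). Decorin (Dcn) was lower in both neonatal (-2.50) and sustained dermis (-1.46), and lumican (Lum, -1.37) and dermatopontin (Dpt, -1.23) were lower in sustained dermis.

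Of 7 named Gla proteins and calcification genes, 4 were lower in neonatal and 3 in sustained dermis, and none was higher. The Gla protein Gas6, a ligand of TAM receptors, differed by -4.52 ± 0.36 in neonatal and -3.10 ± 0.36 in sustained dermis (SE, limma adjusted p = 7.19e-05 and 0.00140). Vkorc1, which recycles vitamin K, differed by -1.15 and -1.23, and the mineral-binding phosphoprotein Spp1 by -4.86 and -2.79. In transient dermis, where Mgp had its highest values, none of the 7 was called on its brightest probe set, although another probe set of Enpp1, which makes the mineralization inhibitor pyrophosphate, was higher (2.02, limma adjusted p = 0.0338).

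The antioxidant, adiponectin-related and peptidase families were thinly named. Of 3 superoxide and peroxide enzymes, the plasma glutathione peroxidase Gpx3 was lower in neonatal (-5.79 ± 0.65, limma adjusted p = 0.000444) and sustained dermis (-4.40 ± 0.65, SE, limma adjusted p = 0.00356). The intracellular catalase Cat differed by -0.53 and 0.22 and was not called. Of 3 C1q and TNF related genes, C1qtnf7 was lower in neonatal dermis (-2.68) and in sustained dermis (-3.47 ± 0.34, SE, limma adjusted p = 0.000822), so that C1qtnf7 was low in neonatal dermis where C1qtnf3 was not. Of 5 dipeptidase-related genes, 4 were lower in neonatal and 4 in sustained dermis, and none was called in transient dermis. The nearest paralogue of Dpp4, Fap, differed by -1.96 in neonatal and -1.68 in sustained dermis, the lysosomal dipeptidase Dpp7 by -2.08 in neonatal dermis, and the chemokines and growth factors in the list, Ccl11 (-5.26 and -3.92) and Igf1 (-2.55 and -1.53), were lower in both. Cxcl12, a chemokine that Dpp4 cleaves, was lower in sustained dermis (-1.84) and did not pass in neonatal dermis (-0.60). Its other probe set was instead higher in neonatal dermis (2.10, limma adjusted p = 0.0396) and not called in sustained dermis (0.63), so the direction of Cxcl12 is uncertain. No copper monooxygenase related to Moxd1 was named.

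Dermal fibroblasts are divided into papillary cells near the epidermis and reticular and adventitial cells deeper in the dermis. Of 13 named reticular and adventitial genes, 9 were lower and 1 higher in neonatal dermis, and 10 lower and 0 higher in sustained dermis, while none was called in transient dermis. The list's median difference was -1.87 in neonatal and -1.47 in sustained dermis. Examples in sustained dermis were the chemokine scavenger Ackr3 (-4.01 ± 0.58), the annexin Anxa3 (-3.67 ± 0.49) and the fibulin Efemp1 (-3.48 ± 0.40; SE, limma adjusted p = 0.00310, 0.00240 and 0.00136). Pi16, a marker of adventitial fibroblasts that in mouse tissues occur together with Dpp4, was lower in neonatal dermis (-4.62 ± 0.40, SE, limma adjusted p = 0.000110) and did not pass in sustained dermis (-0.42, limma adjusted p = 0.518), whereas Dpp4 was low in sustained and little different in neonatal dermis. Dlk1 was higher in neonatal dermis (2.80, limma adjusted p = 0.0304).

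**Figure D5:**
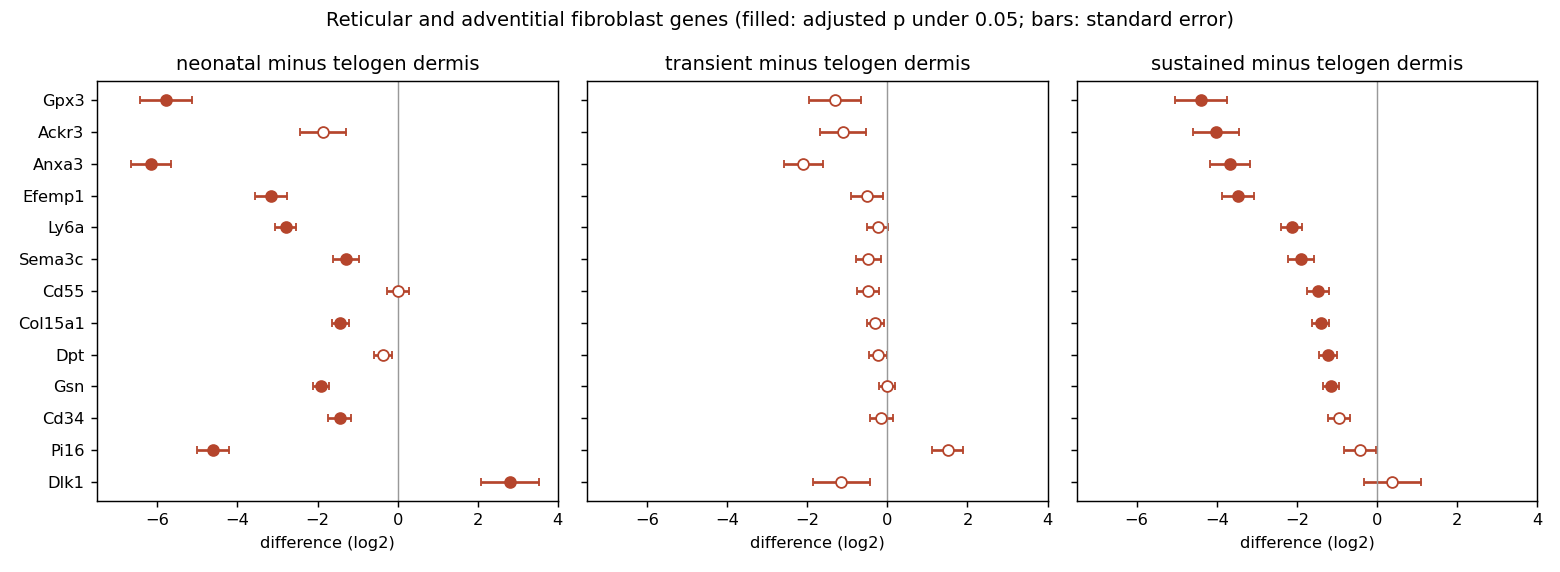
Difference in log2 signal from telogen dermis (horizontal axis) of the 13 named reticular and adventitial fibroblast genes in neonatal, transient and sustained dermis; bars are limma standard errors, and filled points have an adjusted p under 0.05. In neonatal dermis 9 lie lower and Dlk1 higher, none is called in transient dermis, and 10 are lower in sustained dermis.

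Of 8 named papillary genes, 3 were higher in each of neonatal and sustained dermis, 2 and 1 were lower, and 1 was higher in transient dermis. The Wnt target Lef1 was higher by 1.99 and 2.10 (limma adjusted p = 0.00543 and 0.00648) and Lrig1 by 1.44 and 1.03, while podoplanin (Pdpn) was lower, with differences of -1.97 and -1.75. The Wnt inhibitor Wif1 was higher in transient (3.22, limma adjusted p = 0.0424) and sustained dermis (2.76, limma adjusted p = 0.0133). Its transient call was lost without any 1 of telogen mouse 2 or 3 or transient mouse 2, 3 or 4, with quantile normalization or median centring and with only the 6 arrays (limma adjusted p = 0.0605 to 0.193). The papillary list had a median difference of 0.56, 0.93 and 0.91 in neonatal, transient and sustained dermis.

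Between sustained and transient dermis 12 of the 57 listed genes were lower and 0 higher, beside 6.05% and 4.41% of all named genes. They included Gas6 (-2.16), Gpx3 (-3.08), C1qtnf7 (-3.06), Fap (-1.62), Ccl11 (-3.61), Cxcl12 (-1.66) and others of the reticular and adventitial list, Pi16 among them (-1.92, limma adjusted p = 0.0401). For Gas6, C1qtnf7, Cxcl12 and Pi16 the other probe set had the same sign and was not called. Without 1 array at a time the number lay between 5 and 15, with the lowest values without sustained mouse 2 or 5 or transient mouse 2 or 3.

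The genes most like the set were ranked by r with the mean centred profile of the members over the 12 dermal arrays, among 3153 named genes with at least 1 group mean of 6. The 10 highest were Efemp1 (0.987), Fth1 (0.985), Cadm3, Ctsl and Angptl1 (0.984 each), Flrt2 (0.982) and Cd47, Sema3b, Cfb and Shisa5 (0.979 each). Efemp1 averaged 8.32 in neonatal, 10.97 in transient and 8.01 in sustained dermis, against 11.49 in telogen dermis. Such values are common here: 8.75% of the genes had r above 0.9, with a median of 0.219. The ranking depended on the measure, as none of the 10 was kept with Spearman's rho and 4 to 9 were kept when 1 array was left out. For single members, the nearest genes were B2m for Pcolce2 (0.996), Cxcl12 for Tnxb (0.971), Ltbp4 for Mgp (0.961), Scara5 for Sod3 (0.989), Pdgfd for C1qtnf3 (0.958), Sulf2 for Dpp4 (0.989) and Nt5dc3 for Moxd1 (0.939).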

How the data were processed

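RNA of cells sorted from mouse back skin was amplified with the WT-Ovation Pico system, labelled with biotin and hybridized to Affymetrix arrays, per the labels' protocols. Per the submitters' processing notes RMA and MAS5 were used, with no version or role given. The values the authors deposited are log2 signals, with a trimmed linear mean (2% off each end) of 100.02 to 100.03 in every array. Their lists of regulated genes, also deposited, give a ratio on the linear scale, the fold change between 2 groups, with a smallest value of 2.0, per the file headers and values. Genes were named from those lists (GRCm38.p6 symbols): 6480 probe sets carry 1 gene.

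The 7 genes and the gene lists were chosen with earlier results of these data known. After leaving out 64 control probe sets, 45037 were fitted with group means and eBayes (limma 3.58.1 in R 4.3.3), over the 12 arrays of a compartment or over all 24 for dermis against epidermis, with Benjamini-Hochberg adjustment. The 3 arrays per group limit the precision. Log2 signals of different probe sets are not compared as amounts. In simulated data, log2 changes of 1, 2 and 4 gave calls for 1.5%, 32.8% and 72.7% of the changed features in a comparison of sustained with telogen epidermis. Between dermis and epidermis of telogen skin the shares were 3%, 37.3% and 75.8%, each over 45037 probe sets. Each simulation changed 67, 67 and 66 probe sets by these amounts. In the data, 4175 were called higher and 7368 lower between dermis and epidermis of telogen skin. The adjustment is stricter when few features change, so the simulated shares need not hold for the data. Text names all member probe sets, relatives that passed (up to 4 a list by size, and named relatives of the families) and the 10 genes of highest r; others were named after their values were seen. Equal mouse numbers in a state were taken as 1 mouse, per the labels: deviations from the group mean of the 11 such dermal and epidermal pairs had r of -0.052 to 0.153, and the mouse was tried as a block. Alternatives were quantile normalization, median centring, leaving out probe sets with no group mean of 6, an offset of 16, all 24 or only 6 arrays, a minimum log2 difference of 1, eBayes with trend and robust, and each array left out in turn. Python 3.11.15, pandas 2.3.3 and matplotlib 3.10.9 made tables and figures.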

Additional observations from a re-analysis of the deposited data

Results flagged for a closer look

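The brightest Dpp4 probe set differed from telogen in opposite directions in dermis and epidermis. For 1416697_at, all neonatal, transient and sustained dermal arrays lay below all telogen dermal arrays, while all epidermal arrays of the same 3 states lay above all telogen epidermal arrays. The dermal differences from telogen were -0.48, -1.05 and -3.67 log2 units and the epidermal ones 1.29, 1.30 and 1.23. The dermal change minus the epidermal change thus came to -1.77 in neonatal, -2.35 in transient and -4.90 in sustained skin. In sustained skin the other Dpp4 probe sets did the same, with -2.97 and 3.00 for 1459973_x_at (dermal change minus epidermal change -5.97), -2.13 and 2.45 for 1438279_at (-4.58) and -3.14 and 1.53 for 1441342_at (-4.68). These differences between the dermal and epidermal changes were not tested, since the dermal arrays chose the gene, and the epidermal differences did not pass the test on their own. In transient skin 1441342_at was lower in both compartments (-0.96 and -1.05), and in neonatal epidermis it differed by 0.0096. The 3 dimmer probe sets were below the median of every epidermal array.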

How the results depend on the processing

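With 3 arrays a group, calls near the threshold moved with the setting. Of 10 probe sets, 2 were called in neonatal epidermis, and 4 with dim probe sets left out or with trend and robust eBayes. In transient epidermis 0 became 1 (dim probe sets left out, all 24 arrays, trend and robust) or 2 (offset). In sustained epidermis 0 became 1 (median centring, trend and robust, or, added after seeing the data, epidermal transient mouse 4 left out of the shared spread) or 2 (dim probe sets left out, offset, all 24 arrays). Leaving out 1 array at a time gave 2 to 2, 0 to 0 and 0 to 0 calls there, and dermis against epidermis 5 to 6 (neonatal), 8 to 9 (transient), 2 to 4 (sustained; 2 without sustained dermal mouse 3) and 9 to 9 (telogen). Dermal probe sets with all arrays below numbered 8 to 9 (neonatal against telogen), 3 to 5 (transient against telogen; 5 without transient mouse 2), 9 to 10 (sustained against telogen) and 8 to 9 (sustained against transient).

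Listed genes called in dermis numbered 32 in neonatal, 14 with the replicate block and 24 to 29 without 1 array; in sustained 32, 15 with only the 6 arrays, 7 with the replicate block and 26 to 32 without 1 array. In transient dermis 2 became 1 (quantile, median centring), 5 (dim left out), 6 (offset), 9 (trend and robust) and 0 (6 arrays, replicate block), with 0 to 3 without 1 array and 0 without telogen mouse 2 or transient mouse 3 or 4. Between sustained and transient 12 became 24 (dim left out), 26 (offset), 32 (trend and robust) and 0 (6 arrays, replicate block), with 5 to 15 without 1 array. Equal numbers in different states are different mice, so this block pairs nothing. Of the 10 most alike genes 6 were kept with quantile normalization, 0 with Spearman's rho or 4 group means, 2 over 24 arrays and 4 to 9 without 1 array, lowest without sustained mouse 2.

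Uncalled differences near 0 turned sign. In neonatal epidermis Sod3 ran from -0.65 to 1.57 without 1 array, and Dpp4 1441342_at gave -0.11 (quantile), -0.022 (offset) and -0.43 to 0.48 without 1 array. Without 1 array, Sod3 in transient epidermis ran from -1.56 to 0.35, Mgp in sustained epidermis from -0.033 to 0.14 and, in dermis against epidermis, Dpp4 1438279_at (transient) from -0.086 to 1.22 and Dpp4 1416697_at (sustained) from -0.43 to 0.18. Mgp in sustained epidermis gave -0.093 with median centring and Moxd1 0.0070 with the replicate block.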
